A study of Mus musculus with 24 samples.

Results

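A set of 10 genes that build, crosslink, contract or anchor the actin cytoskeleton were described in mouse kidney RNA after ischemia reperfusion injury. They were taken by symbol from a table of 55416 gene IDs, and 10 of the 10 were found. They are Actg1 (an actin), Flnc and Flna (filamins), Actn1 (an alpha-actinin), Tpm1 and Tpm4 (tropomyosins), Myh9 (a nonmuscle myosin heavy chain), Vcl (vinculin), Ppfibp1 (liprin-beta-1) and Tubb6 (a beta-tubulin). Tubulin builds microtubules and not actin filaments. All 10 passed the filter on low values, as did 17430 genes in all. The genes were chosen by their measured changes in these same libraries, after injury and between the genotypes after injury, so those changes are given as a description with no test. Only the genotype comparison in sham kidneys and the relation to Havcr1 within a group are tested for them. The relation to Havcr1, an injury marker, is not free of that choice, since the genes were chosen for changes after injury.

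RNA was sequenced from kidneys in 4 groups of 6 libraries. The groups were B-IRI PolgD257A, B-IRI Polg+/+, Sham PolgD257A and Sham Polg+/+, where B-IRI is the labels' name for the ischemia reperfusion surgery. PolgD257A mice carry a proofreading-deficient catalytic subunit of the mitochondrial DNA polymerase, so that mitochondrial DNA gathers mutations, and the Polg+/+ mice were their littermates. The study asked how such mutations contribute to the injury. The labels call the libraries biological replicates, and no source used here gives sex, age, strain or how long after surgery the kidneys were taken.

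Libraries held 16689284 to 26341004 reads assigned to genes. The kidney label was checked by summed proximal tubule markers, which were 238720 to 331602 normalized counts in the 12 sham libraries. After B-IRI that sum was 99520 to 126584 in PolgD257A and 155678 to 211352 in Polg+/+ kidneys. Havcr1, which encodes kidney injury molecule 1, ran from 25924 to 36062 normalized counts in B-IRI PolgD257A and from 5441 to 24888 in B-IRI Polg+/+ kidneys, against 143 to 198 in Sham PolgD257A and 112 to 180 in Sham Polg+/+ kidneys. The PolgD257A change is in the coding sequence, so the Polg mRNA level does not check the genotype labels. In these bulk samples fewer cells of a type and less RNA per cell cannot be told apart.

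As background, actin filaments are polar polymers that carry tropomyosins along their length, are bundled by alpha-actinins, woven into networks by filamins and pulled on by nonmuscle myosin II. Vinculin ties the filaments to integrins at focal adhesions. In the kidney tubule, ischemia is known to break down the actin core of the apical brush border, and surviving cells flatten, spread and migrate while the epithelium is repaired. Many actin cytoskeleton genes are targets of serum response factor (SRF) and its actin-sensing coactivators, the MRTFs, which bind the CArG box.

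Actg1 encodes cytoplasmic gamma-actin, a main actin of nonmuscle cells. It lies at chr11:120345690-120348542 on the minus strand (GENCODE M21, GRCm38, as for all gene positions here). Its lowest, median and highest normalized counts were 16303, 21339 and 24371 in B-IRI PolgD257A, 15581, 15823 and 18092 in B-IRI Polg+/+, 9120, 9527 and 10265 in Sham PolgD257A, and 8558, 9654 and 10437 in Sham Polg+/+ kidneys. The B-IRI and sham libraries did not overlap in either genotype. After B-IRI, 5 of the 6 PolgD257A libraries were above every Polg+/+ library. Actg1 and Actb have nearly identical coding sequences, so the authors' counting may have split reads between them or dropped them.

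Flnc encodes filamin C, the filamin known mainly from striated muscle, and lies at chr6:29433256-29461883 on the plus strand. It had the lowest level and the widest range of the 10 genes. Its lowest, median and highest normalized counts were 544, 619 and 1013 in B-IRI PolgD257A, 55.3, 273 and 424 in B-IRI Polg+/+, 13.0, 19.2 and 25.3 in Sham PolgD257A, and 11.8, 15.7 and 20.9 in Sham Polg+/+ kidneys. The 3 ranges formed by both sham groups together, B-IRI Polg+/+ and B-IRI PolgD257A did not overlap. B-IRI Polg+/+ libraries spread over the widest relative range, with a coefficient of variation of 61.4%, against 26.3% in B-IRI PolgD257A kidneys. Summed markers of striated muscle (8 genes) were 21.7 to 36.5 normalized counts in B-IRI PolgD257A, 32.5 to 50.1 in B-IRI Polg+/+, 48.5 to 65.5 in Sham PolgD257A and 42.1 to 78.0 in Sham Polg+/+ kidneys. The B-IRI PolgD257A libraries thus held the lowest sum, and Myh4, a fast skeletal myosin, was at 0 in all 24 libraries.

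Flna encodes filamin A, the widely expressed filamin that links actin networks to membrane receptors, at chrX:74223461-74249820 on the minus strand. Its lowest, median and highest normalized counts were 4848, 5042 and 6733 in B-IRI PolgD257A, 2545, 3559 and 4075 in B-IRI Polg+/+, 1596, 1694 and 2127 in Sham PolgD257A, and 1781, 1848 and 2206 in Sham Polg+/+ kidneys. Every B-IRI library was above every sham library, and every B-IRI PolgD257A library above every B-IRI Polg+/+ library. Actn1, at chr12:80167547-80260371 on the minus strand, encodes alpha-actinin-1, which bundles filaments in stress fibers and at focal adhesions. Its normalized counts were 2215, 2409 and 3271 in B-IRI PolgD257A, 963, 1319 and 1740 in B-IRI Polg+/+, 660, 716 and 802 in Sham PolgD257A, and 621, 656 and 749 in Sham Polg+/+ kidneys, in the same order of lowest, median and highest. The order of groups was that of Flna after B-IRI, again with no overlap.

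The tropomyosins coat actin filaments and set which myosins and severing proteins reach them. Tpm4, at chr8:72134975-72153142 on the plus strand, had lowest, median and highest normalized counts of 4063, 5067 and 5788 in B-IRI PolgD257A, 1822, 2826 and 3549 in B-IRI Polg+/+, 1212, 1406 and 1489 in Sham PolgD257A, and 1166, 1296 and 1348 in Sham Polg+/+ kidneys. Tpm1, at chr9:67022590-67049406 on the minus strand, had 3972, 4515 and 4719 in B-IRI PolgD257A, 2742, 3393 and 4009 in B-IRI Polg+/+, 2137, 2253 and 2402 in Sham PolgD257A, and 2100, 2201 and 2291 in Sham Polg+/+ kidneys. The B-IRI genotypes were apart in Tpm4 but touched in Tpm1, where 4 of the 6 PolgD257A libraries were above all Polg+/+ libraries.

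Myh9 encodes the heavy chain of nonmuscle myosin IIA, the main motor of stress fiber contraction, at chr15:77760587-77842175 on the minus strand. Its lowest, median and highest normalized counts were 9759, 11298 and 14238 in B-IRI PolgD257A, 6480, 7913 and 9139 in B-IRI Polg+/+, 4920, 5500 and 5982 in Sham PolgD257A, and 4877, 5425 and 5731 in Sham Polg+/+ kidneys. Vcl, at chr14:20929398-21033676 on the plus strand, encodes vinculin, which couples talin at integrin adhesions, and catenins at cell-cell junctions, to actin. It had 872, 937 and 1155 in B-IRI PolgD257A, 506, 708 and 758 in B-IRI Polg+/+, 391, 511 and 543 in Sham PolgD257A, and 438, 469 and 531 in Sham Polg+/+ kidneys. In both genes the B-IRI genotypes did not overlap, and in Vcl 1 B-IRI Polg+/+ library lay within the sham range. Vcl shares exonic sequence with Ap3m1 on the opposite strand, and Ap3m1 held 789 to 1017 normalized counts per library. Whether counting used strand is not given in the sources used here, so reads in the shared part may have been dropped or assigned to either gene.

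Ppfibp1 encodes a scaffold of the liprin family found at cell adhesions and the cell edge, at chr6:146888487-147032025 on the plus strand. Its lowest, median and highest normalized counts were 2852, 3492 and 3838 in B-IRI PolgD257A, 2224, 2387 and 2518 in B-IRI Polg+/+, 1557, 1691 and 1746 in Sham PolgD257A, and 1689, 1841 and 1984 in Sham Polg+/+ kidneys. Tubb6, on chromosome 18, had 750, 1004 and 1163 in B-IRI PolgD257A, 324, 576 and 698 in B-IRI Polg+/+, 201, 208 and 232 in Sham PolgD257A, and 190, 219 and 239 in Sham Polg+/+ kidneys. In both genes the B-IRI groups were apart from each other and from their shams. Annotated genes on the opposite strand also share exonic sequence with Actn1, Tpm4 and Ppfibp1, but none of those reached more than 13.0 normalized counts in a library.

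**Figure D1:**
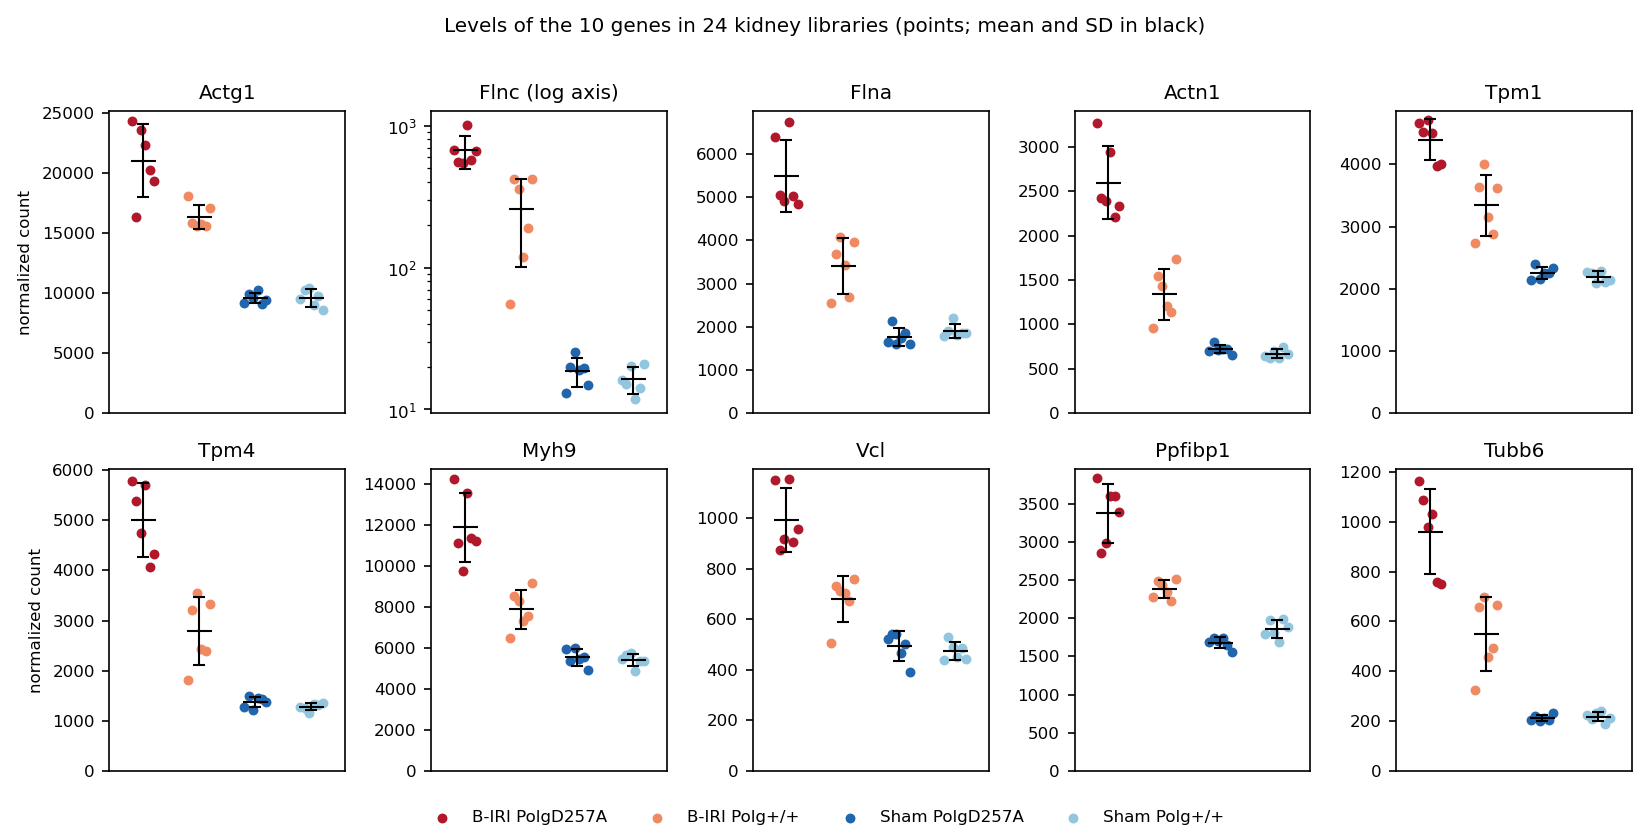
Normalized counts (vertical axis; logarithmic for Flnc, linear from 0 for the others) of each gene in B-IRI PolgD257A, B-IRI Polg+/+, Sham PolgD257A and Sham Polg+/+ kidneys, left to right, with 6 libraries as points and the mean and SD in black. B-IRI PolgD257A libraries are the highest group for every gene, both sham groups lie together, and Flnc spreads from 55.3 to 424 in B-IRI Polg+/+ kidneys.

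Single libraries recurred at the extremes. Within B-IRI Polg+/+, replicate 1 was the lowest library for 8 of the 10 genes, all but Actg1, where it was the highest, and Ppfibp1. It also had the lowest Havcr1 of its group, at 5441 normalized counts. Within B-IRI PolgD257A, replicate 1 was the highest library for 6 genes and replicate 4 for 3 (Flnc, Flna and Vcl).

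Divided by the merged exon length in kb, Actg1 had the highest level in each group, with a mean of 7919 normalized counts per kb in B-IRI PolgD257A and 6147 in B-IRI Polg+/+, against 3610 in Sham PolgD257A and 3615 in Sham Polg+/+ kidneys. Tpm4, Myh9, Tpm1 and Flna followed in this order in each group. Flnc was the lowest in each and Vcl the next, at 71.4 ± 18.8 normalized counts per kb for Flnc in B-IRI PolgD257A and 27.7 ± 17.0 in B-IRI Polg+/+, against 1.98 ± 0.460 in Sham PolgD257A and 1.75 ± 0.376 in Sham Polg+/+ kidneys (SD, n = 6). Actn1, Tubb6 and Ppfibp1 changed places, in that order from high to low after B-IRI and with Ppfibp1 ahead of Actn1 and Tubb6 in sham kidneys. All these ranks depend on the merged exon length, which counts every annotated exon of a gene, expressed or not. In B-IRI PolgD257A kidneys the per kb level of Actn1 was 470 ± 74.9 and that of Tubb6 394 ± 70.4. Both were measured in the same 6 libraries, and whether these neighbours differed within libraries was not tested.

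Promoters are shown as a description. That the 10 genes moved together follows from how they were chosen. RefSeq promoter windows (GRCm38.p6, 250 bases before to 50 bases after a start) were at hand for 9 of the 10 genes, all but Tubb6. Each was searched on both strands for the CArG box of SRF, the core GGAATG bound by TEAD factors, and the AP-1 site TGANTCA, and no matches overlapped. The CArG box occurred in 2 of the 9 genes, Actg1 and Vcl, and in 1.63% of 32851 windows in the table. The TEAD core was in 5 of the 9 (Flna, Flnc, Ppfibp1, Tpm1 and Vcl) and in 14.7% of windows. The AP-1 letters were in 0 of the 9, and in 7.81% of windows. The percentages count single windows, whereas a gene can have more than 1 window, as Flnc does. Shares of genes and of windows are therefore not like for like. Actn1, Myh9 and Tpm4 held none of these motifs. A match is a description of letters and no evidence of binding. The bases upstream of the start that no GENCODE exon covers are shown 5′ to 3′ for 4 genes, with matches in capitals. These 4 were picked because they hold a match, and they hold both matched motifs between them. They are Actg1 at chr11:120348543-120348677 (minus strand), Vcl at chr14:20929148-20929397 (plus strand), Flnc at chr6:29433006-29433255 (plus strand) and Flna at chrX:74246556-74246784 (minus strand).
Actg1: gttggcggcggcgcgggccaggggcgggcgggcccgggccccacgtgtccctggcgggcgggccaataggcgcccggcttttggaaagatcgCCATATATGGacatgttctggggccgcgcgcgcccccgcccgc
Vcl: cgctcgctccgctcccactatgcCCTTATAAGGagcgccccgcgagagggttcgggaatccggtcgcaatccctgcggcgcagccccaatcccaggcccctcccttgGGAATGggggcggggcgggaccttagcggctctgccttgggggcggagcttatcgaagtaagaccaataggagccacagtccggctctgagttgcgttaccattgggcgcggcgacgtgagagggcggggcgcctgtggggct
Flnc: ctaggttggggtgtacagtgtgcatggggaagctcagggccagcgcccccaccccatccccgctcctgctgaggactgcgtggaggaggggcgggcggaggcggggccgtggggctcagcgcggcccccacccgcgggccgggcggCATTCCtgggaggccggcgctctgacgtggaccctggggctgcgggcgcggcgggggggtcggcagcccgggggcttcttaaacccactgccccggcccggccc
Flna: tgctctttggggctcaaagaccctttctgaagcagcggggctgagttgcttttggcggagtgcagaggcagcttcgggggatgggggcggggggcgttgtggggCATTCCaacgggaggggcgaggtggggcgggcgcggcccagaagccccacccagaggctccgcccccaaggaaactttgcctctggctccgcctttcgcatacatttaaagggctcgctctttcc
The CArG box of Actg1, CCATATATGG, begins 90 bases before its start, and that of Vcl, CCTTATAAGG, begins 227 bases before. Vcl also holds the TEAD core 143 bases before its start. In Flnc and Flna the capitals mark the TEAD core read on the opposite strand, beginning 104 and 146 bases before the start.

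All 10 genes were at higher levels after B-IRI than after sham surgery in PolgD257A kidneys. The median log2 change of normalized count + 1 between B-IRI and sham PolgD257A kidneys was 1.38 over the 10 genes, with a range from 0.96 to 5.09, and the median over all 17430 genes was -0.0011. All 10 were past an adjusted p of 0.05 in the higher direction, as were 30.2% of all genes tested, while 30.3% were lower (60.4% in either direction). For all 10, every B-IRI library was above every sham library. The choice of genes rests on these libraries, so nothing is read from those counts.

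The filamin network and its adhesions gave both the widest and among the narrowest of these changes. Flnc had a log2 change of 5.09 ± 0.34 (SE, as for all log2 changes here) between B-IRI and sham PolgD257A kidneys, and Flna 1.63 ± 0.11. The crosslinker Actn1 had 1.84 ± 0.11 and the adhesion protein Vcl 1.00 ± 0.09. Filament genes had 1.12 ± 0.08 for Actg1, 1.85 ± 0.12 for Tpm4 and 0.96 ± 0.07 for Tpm1, the smallest of the 10. The motor Myh9 had 1.09 ± 0.08, the scaffold Ppfibp1 1.00 ± 0.06 and the tubulin Tubb6 2.15 ± 0.14. The SE of a gene uses 1 variance pooled over all 24 libraries, and is therefore the same in both genotypes whatever the spread within a group.

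In Polg+/+ kidneys the same genes were higher after B-IRI by a median log2 change of 0.79, from 0.36 to 3.61, against a median over all genes of -0.0082. All 10 were past the threshold upwards, as were 21.4% of all genes tested, with 19.8% lower (41.2% in either direction), and again nothing is read from it. For 9 of the 10 no sham library reached a B-IRI library, and Vcl was the exception. The log2 changes were 3.61 ± 0.34 for Flnc, 1.29 ± 0.14 for Tubb6, 1.09 ± 0.12 for Tpm4, 0.98 ± 0.11 for Actn1 and 0.82 ± 0.11 for Flna. They were 0.77 ± 0.08 for Actg1, 0.59 ± 0.07 for Tpm1, 0.53 ± 0.08 for Myh9, 0.51 ± 0.09 for Vcl and 0.36 ± 0.06 for Ppfibp1. Thus Flnc and Tubb6 led in both genotypes, and the smallest changes were those of Tpm1 in PolgD257A and of Ppfibp1 in Polg+/+ kidneys. These 2 comparisons share no libraries, but the choice of genes rests on both and each gene has 1 variance for both. The shared order is therefore no independent check.

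After B-IRI the 10 genes were higher in PolgD257A than in Polg+/+ kidneys, with a median log2 difference of 0.65 and a range from 0.35 to 1.65 (median over all genes 0.0093). All 10 passed the threshold upwards, as did 14.3% of all genes tested, with 15.2% lower (29.5% in either direction), and nothing is read from that count. Groups did not overlap for 8 of the 10, the exceptions being Actg1 and Tpm1. Flnc differed by 1.65 ± 0.34, Actn1 by 0.97 ± 0.11, Tpm4 by 0.87 ± 0.12, Tubb6 by 0.84 ± 0.14 and Flna by 0.70 ± 0.11. Myh9 differed by 0.59 ± 0.08, Vcl by 0.55 ± 0.09, Ppfibp1 by 0.50 ± 0.06, Tpm1 by 0.41 ± 0.07 and Actg1 by 0.35 ± 0.08. Hence abundant gamma-actin showed the smallest genotype difference after injury and low Flnc the widest.

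The authors' deposited table of 1401 genes for PolgD257A against Polg+/+ after B-IRI lists 7 of the 10 genes, with shrunken log2 fold changes. In the authors' deposited table these are 1.16 for Flnc, 0.93 for Actn1, 0.81 for Tpm4, 0.76 for Tubb6, 0.66 for Flna, 0.57 for Myh9 and 0.52 for Vcl. The 3 genes not listed there, Actg1, Tpm1 and Ppfibp1, are those with the smallest differences here. For each of the 1345 genes in it that were also tested here the sign was the same. By its name the deposited table lists significant genes, and it rests on these same libraries, so the shared sign is no independent check.

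In sham kidneys, where the genes can be tested, no difference between the genotypes passed the test. Of the 10 genes 0 passed an adjusted p of 0.05 in limma, edgeR or DESeq2, as against 0.126% of all genes tested in limma (22 genes, with 0.0861% of genes higher and 0.0402% lower), and 1, Ppfibp1, was below an unadjusted p of 0.05. The log2 difference was positive in 7 of the 10, with a median of 0.03 and a range from -0.14 to 0.17, and the median over all genes was 0.0070. Ppfibp1 averaged 1680 ± 70.2 normalized counts in Sham PolgD257A and 1855 ± 115 in Sham Polg+/+ kidneys (SD, n = 6 each). Its log2 difference of -0.14 ± 0.06 had an adjusted p of 0.57 in limma, the smallest of the 10. Flnc, at a log2 difference of 0.17 ± 0.34, had an adjusted p of 0.95. The sign for Actg1, at 0.00044 ± 0.08, turned under several settings.

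**Figure D2:**
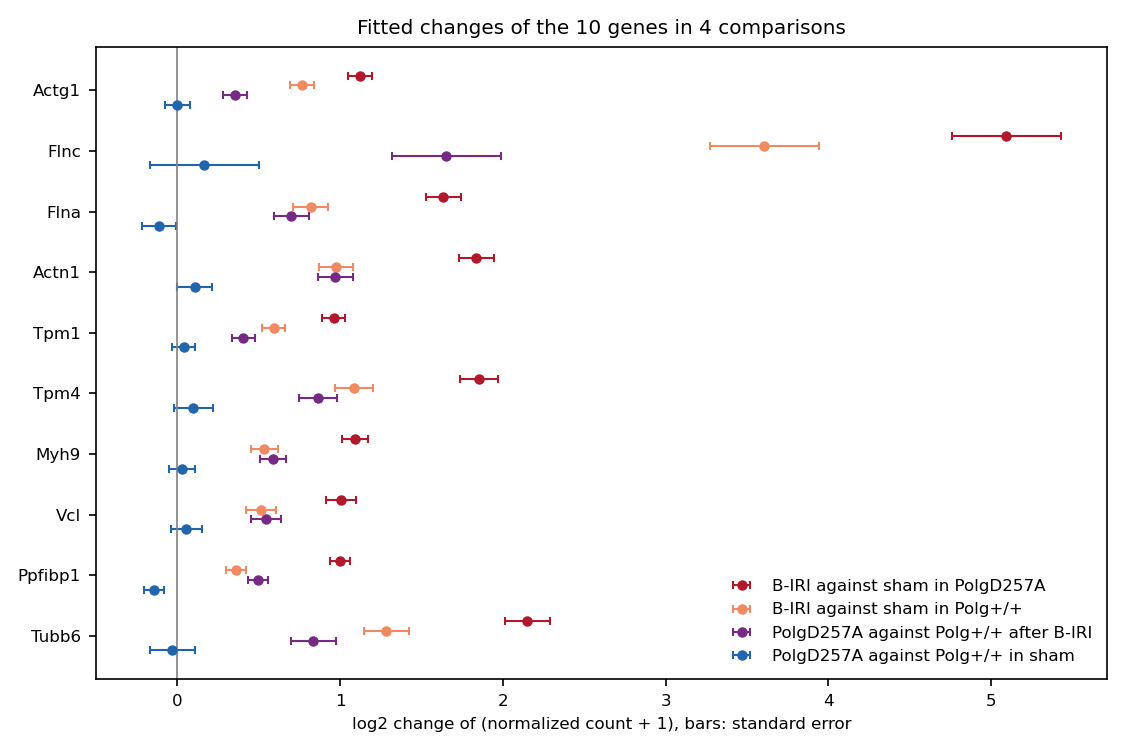
Fitted log2 change of normalized count + 1 (horizontal axis) with its standard error for each of the 10 genes in 4 comparisons. Changes after B-IRI lie right of 0 in both genotypes, widest for Flnc at 5.09 in PolgD257A and 3.61 in Polg+/+ kidneys, and differences between sham groups lie between -0.14 and 0.17.

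The difference between the 2 injury responses is the surgery by genotype interaction. It was positive for each of the 10 genes, with a median of 0.70 and a range from 0.35 to 1.49 on the log2 scale (median over all genes 0.0037). All 10 passed the limma threshold upwards, as did 6.87% of all genes tested, with 9.08% negative (15.9% in either direction), and the choice of genes again makes this a description. Flnc had the widest value, 1.49 ± 0.47, and the least certain, since it was past the threshold neither in edgeR (1.18, adjusted p = 0.26) nor in DESeq2 (1.18, adjusted p = 0.11). Leaving out any of 8 of the 24 libraries also ended the call, with adjusted p from 0.0119 to 0.0627 in limma over all 24 omissions. Tubb6 had 0.87 ± 0.20, Actn1 0.86 ± 0.15, Flna 0.81 ± 0.15, Tpm4 0.77 ± 0.17 and Ppfibp1 0.64 ± 0.09. Myh9 had 0.56 ± 0.12, Vcl 0.49 ± 0.13, Tpm1 0.37 ± 0.10 and Actg1 0.35 ± 0.11. As fold changes, Ppfibp1 was 2.00-fold higher after B-IRI in PolgD257A and 1.28-fold higher in Polg+/+ kidneys.

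Setting each gene beside its relatives gave each a share of the family RNA. Shares are of the family's summed normalized counts per kb, as mean ± SD of 6 libraries, and are descriptions. They depend on the merged exon length, which counts every annotated exon, expressed or not (6485 bases for Tpm1 and 2203 for Tpm4). Without that division Tpm1 was above Tpm4 in Sham Polg+/+ kidneys, with means of 2196 and 1282 normalized counts. The nonmuscle myosins moved apart. Myh9 was 80.2% ± 2.62 of their RNA in B-IRI PolgD257A and 69.0% ± 3.17 in B-IRI Polg+/+, against 56.4% ± 1.87 in Sham PolgD257A and 54.6% ± 1.68 in Sham Polg+/+ kidneys. Myh14, the heavy chain of nonmuscle myosin IIC, fell by 1.11 ± 0.12 on the log2 scale after B-IRI in PolgD257A (adjusted p = 2.1e-08) and by 0.55 ± 0.12 in Polg+/+ kidneys (adjusted p = 0.00084, limma). It also fell in PolgD257A relative to Polg+/+ kidneys after B-IRI, with a log2 difference of -0.60 ± 0.12 (adjusted p = 0.00060). Myh10, the heavy chain of IIB, had log2 changes of 0.06 ± 0.07 and -0.08 ± 0.07 after B-IRI in PolgD257A and Polg+/+ kidneys (adjusted p = 0.51 and 0.37).

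Among alpha-actinins Actn1 made up 20.3% ± 1.89 in B-IRI PolgD257A and 12.8% ± 2.23 in B-IRI Polg+/+, against 9.12% ± 0.416 in Sham PolgD257A and 8.56% ± 0.529 in Sham Polg+/+ kidneys. Actn4, the podocyte and epithelial form, held most of the rest and rose, with log2 changes of 0.51 ± 0.05 in PolgD257A and 0.34 ± 0.05 in Polg+/+ kidneys (adjusted p = 5.8e-09 and 1.1e-05, limma). Whether Actn1 and Actn4 differed in their change was not tested. Tpm4 was 53.9% ± 1.69 of tropomyosin RNA in B-IRI PolgD257A and 46.3% ± 3.26 in B-IRI Polg+/+, against 40.6% ± 1.62 in Sham PolgD257A and 39.3% ± 1.21 in Sham Polg+/+ kidneys. Tpm1 went the other way as a share, with 16.2% ± 1.23 in B-IRI PolgD257A and 19.2% ± 1.11 in B-IRI Polg+/+, against 22.7% ± 0.458 in Sham PolgD257A and 22.9% ± 0.713 in Sham Polg+/+ kidneys, although its own count was higher after B-IRI.

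Tubb6 was a small part of beta-tubulin RNA, at 5.50% ± 1.01 in B-IRI PolgD257A and 4.21% ± 0.755 in B-IRI Polg+/+, against 2.96% ± 0.0851 in Sham PolgD257A and 3.15% ± 0.209 in Sham Polg+/+ kidneys. Ppfibp1 was 90.1% ± 1.37 of liprin-beta RNA in B-IRI PolgD257A and 85.5% ± 1.99 in B-IRI Polg+/+, against 78.8% ± 1.47 in Sham PolgD257A and 78.9% ± 0.788 in Sham Polg+/+ kidneys. Its relative Ppfibp2 fell, by 0.30 ± 0.08 in PolgD257A and 0.31 ± 0.08 in Polg+/+ kidneys on the log2 scale (adjusted p = 0.0015 and 0.0020, limma). Actg1 kept close to Actb, with 55.5% ± 2.10 of their summed RNA in B-IRI PolgD257A and 55.2% ± 1.51 in B-IRI Polg+/+, against 54.3% ± 1.59 in Sham PolgD257A and 53.1% ± 1.57 in Sham Polg+/+ kidneys. Actb rose by 1.05 ± 0.07 in PolgD257A and 0.64 ± 0.07 in Polg+/+ kidneys after B-IRI (log2, adjusted p = 1.0e-12 and 4.1e-08).

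**Figure D3:**
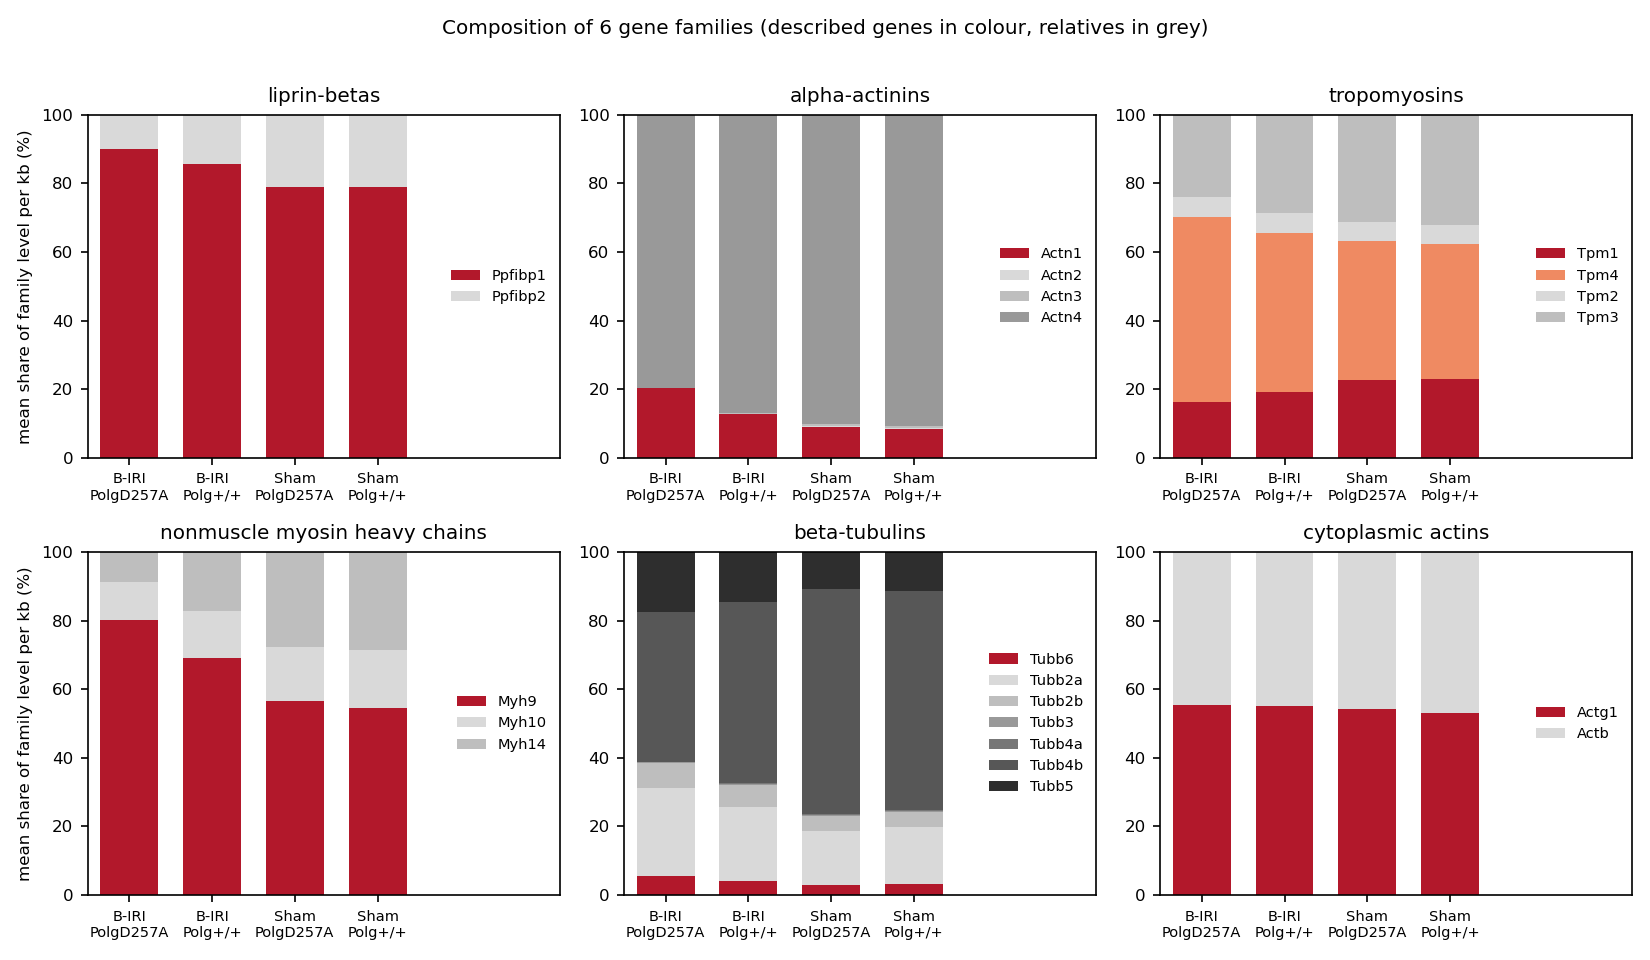
Mean share (vertical axis, percent, n = 6 libraries per bar) of each gene in the summed normalized counts per kb of its family, in the 4 groups, with the described genes in red and orange and their relatives in grey. Actn1, Tpm4, Myh9 and Ppfibp1 take larger shares after B-IRI, most in PolgD257A kidneys (Myh9 80.2% against 54.6% in Sham Polg+/+), and Tpm1 a smaller one.

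How closely the genes followed the extent of injury was tested within each B-IRI group against Havcr1 (Pearson correlation r of log2 values over 6 libraries, with the Spearman rank correlation beside it, exact two-sided permutation over 720 pairings, 20 tests adjusted together). In B-IRI Polg+/+ kidneys 6 of the 10 genes were correlated with Havcr1 at an unadjusted p below 0.05, all positively. By the same exact permutation test 12.8% of 17429 genes were so in either direction, and 7.38% positively. Those shares are over all genes, whereas the 10 were chosen for their changes after injury. The share among other genes that rose after B-IRI was not computed, so nothing is read from the contrast. The same 6 passed after adjustment over the 20 tests. Adjusted over all genes 0 passed in either group, and the smallest permutation p of the 10 genes was then 0.64 in B-IRI PolgD257A and 0.19 in B-IRI Polg+/+ kidneys. Flnc (r = 0.97) and Myh9 (r = 0.97) had an adjusted permutation p of 0.0139, and their raw p of 0.00139 is the smallest that 720 pairings can give. Both were in the same rank order as Havcr1 in all 6 libraries (Spearman = 1, permutation p = 0.00278, adjusted p = 0.0278). Actn1 (r = 0.93, Spearman = 0.94) and Tubb6 (r = 0.94, Spearman = 0.83) had an adjusted permutation p of 0.0231, Tpm4 (r = 0.91, Spearman = 0.77) of 0.0437 and Vcl (r = 0.79, Spearman = 0.94) of 0.0451. By rank correlation 4 of these 6 passed, and Tubb6 (adjusted permutation p = 0.13) and Tpm4 (adjusted permutation p = 0.19) did not. Flna, Tpm1 and Ppfibp1 had r of 0.74, 0.79 and 0.75 and did not pass (adjusted permutation p from 0.15 to 0.17). Actg1 had r of -0.33 (Spearman = -0.09, adjusted permutation p = 0.62).

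Libraries 1 and 4 of that group lay farthest from the median of Havcr1. Without them r was positive for all 10 genes, from 0.69 for Tpm1 to 1.00 for Myh9, over 4 libraries, and r of Actg1 was 0.82. Leaving out 1 library leaves 5, for which no permutation p can go below 0.00833. The count of genes passing was then 2 without replicate 1, 0 without replicate 2, 0 without replicate 3, 4 without replicate 4, 5 without replicate 5 and 2 without replicate 6.

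In B-IRI PolgD257A kidneys Havcr1 varied little, with a coefficient of variation of 14.3%, against 52.2% in B-IRI Polg+/+ kidneys. There Tubb6 (r = 0.99, Spearman = 0.94, adjusted permutation p = 0.0185) and Tpm4 (r = 0.94, Spearman = 0.94, adjusted permutation p = 0.0231) passed over the 20 tests. With Tpm1, 3 of the 10 genes were below an unadjusted permutation p of 0.05, all positively. Of all genes 7.46% were below it in either direction, and 3.84% positively, which again is no share among genes that rose after B-IRI. By rank correlation 3 passed (Actn1, Tpm4 and Tubb6, each at 0.94 and an adjusted permutation p of 0.0476). Replicates 5 and 6 lay apart from the other 4 libraries in Havcr1, at 25924 and 26493 against 33059 to 36062 normalized counts. Without them r was 0.95 for Tubb6 and 0.80 for Tpm4, while r of Tpm1 was -0.39 against 0.93 with them, so the value of Tpm1 rests on those libraries. Flnc had r of 0.22 and Myh9 of 0.35 here, with adjusted permutation p of 0.78 and 0.61. The difference between the correlations of the 2 groups was not tested. The count passing was 0 without replicate 1, 2 or 4, 2 without replicate 3, and 1 without replicate 5 or 6.

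**Figure D4:**
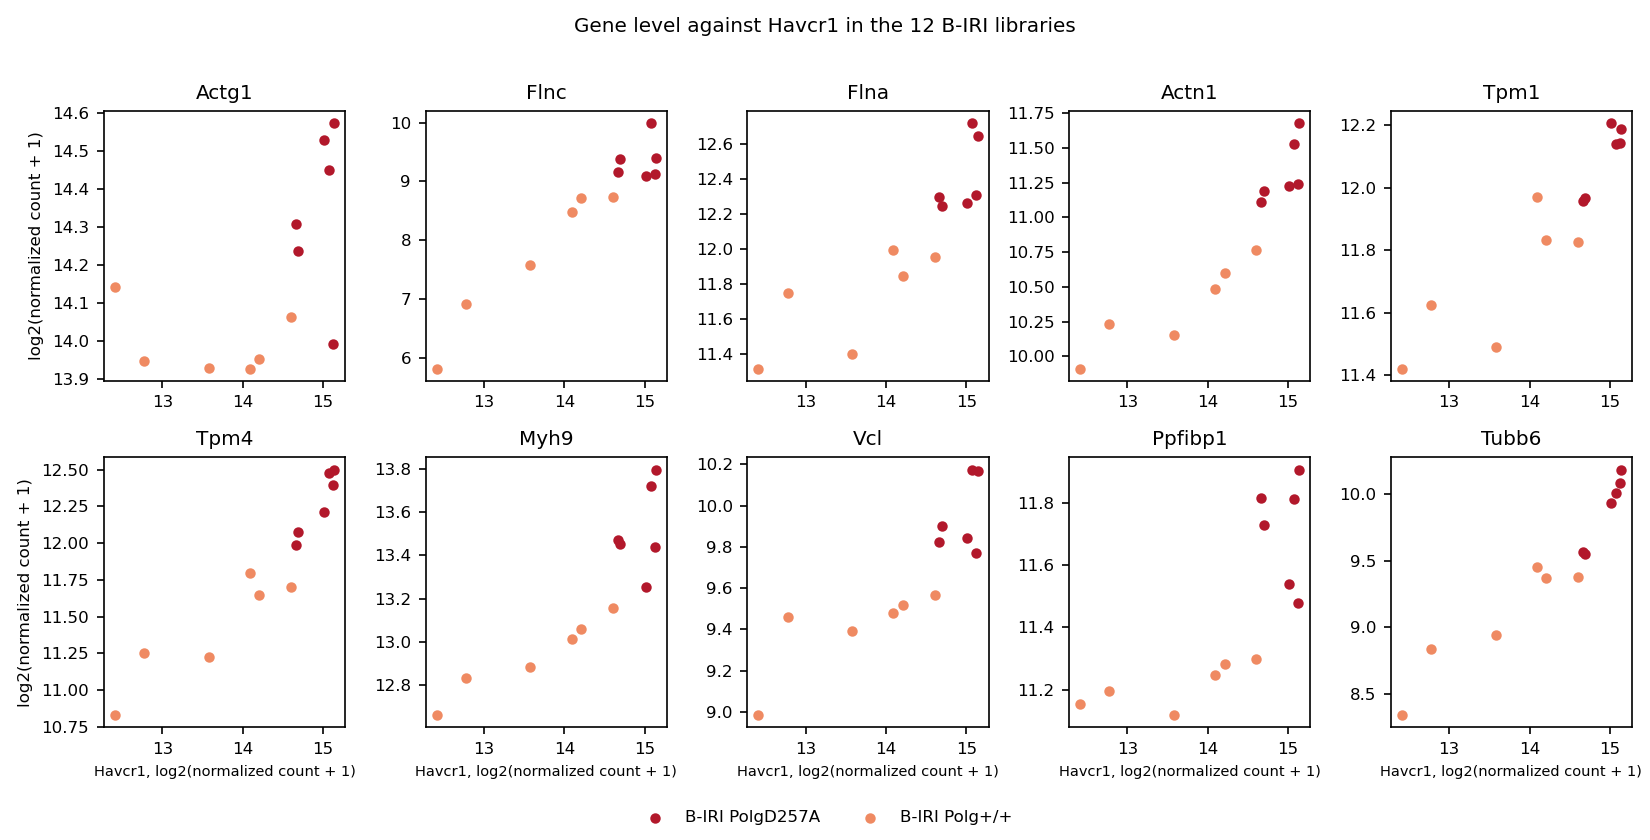
Log2(normalized count + 1) of each gene (vertical axis) against that of Havcr1 (horizontal axis) in the 6 B-IRI PolgD257A and the 6 B-IRI Polg+/+ libraries. In Polg+/+ kidneys Flnc and Myh9 climb with Havcr1 in all 6 libraries (r = 0.97 each), whereas Actg1 does not (r = -0.33).

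Across all 24 libraries the genes nearest to each in pattern were found by the root-mean-square difference of log2 values after centring, over 10794 genes with a mean normalized count of 100 or more. The 10 genes themselves were left out of this search. Actg1 was nearest to Actb (0.11) and Iars (0.12), Tpm1 to the severing factor gene Cfl1 (0.08) and Pa2g4 (0.09), and Tubb6 to the tubulin gene Tubb5 (0.14) and Plekho1 (0.17). Flna was nearest to Msn (0.13), which encodes the membrane-actin linker moesin, and Sbno2 (0.15). Actn1 and Tpm4 shared Arpc1b, a subunit gene of the Arp2/3 complex, as nearest (0.14 and 0.11), followed by Nfkbiz for Actn1 (0.14) and Tubb5 for Tpm4 (0.14). Myh9 and Vcl shared Cd2ap, an actin-linked adaptor gene known from the podocyte slit diaphragm (0.09 and 0.10), followed by Steap2 for Myh9 (0.10) and Ddx21 for Vcl (0.11). Ppfibp1 was nearest to Arnt2 (0.09) and Adgrg1 (0.10). Flnc was nearest to the cytokine gene Lif (0.55), a wider distance in a gene that itself spread more, with a root-mean-square spread of 2.33 on the log2 scale, against 0.40 to 0.94 for the other 9. Within the 10, Myh9 and Vcl (0.10) and Actn1 and Tpm4 (0.12) were the closest pairs.

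Other cytoskeleton genes were read from 11 lists of 171 genes that leave the 10 out, of which 165 passed the filter. The lists were written from general knowledge, but with earlier results of these data known. Their counts are therefore no independent support for the changes of the 10 genes. After B-IRI in PolgD257A kidneys 111 of the 165 rose and 20 fell (limma, adjusted p below 0.05), with a median log2 change of 0.38. In Polg+/+ kidneys 91 rose and 11 fell, with a median of 0.23. In PolgD257A against Polg+/+ kidneys after B-IRI 76 were higher and 13 lower, with a median of 0.17. In sham kidneys 0 passed in limma, edgeR or DESeq2, and 12 were below an unadjusted p of 0.05. The interaction passed for 46 genes upwards and 12 downwards. Shares over all genes tested are those given above for each comparison.

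Genes that assemble filaments mostly rose in PolgD257A kidneys, while in Polg+/+ kidneys 11 of the 23 tested passed the threshold in neither direction. In the list of Arp2/3 subunits, nucleators and formins 18 of 23 rose and 1 fell after B-IRI in PolgD257A, and 11 rose and 1 fell in Polg+/+ kidneys. Arpc1b averaged 4277 ± 484 normalized counts in B-IRI PolgD257A and 2608 ± 488 in B-IRI Polg+/+, against 1213 ± 67.9 in Sham PolgD257A and 1172 ± 82.8 in Sham Polg+/+ kidneys (SD, n = 6). Its log2 change was 1.81 ± 0.09 in PolgD257A (adjusted p = 1.3e-14) and 1.14 ± 0.09 in Polg+/+ kidneys (adjusted p = 4.5e-10). The gene that fell was the formin Fmnl1, by 1.27 ± 0.08 in PolgD257A (adjusted p = 1.6e-12) and 0.73 ± 0.08 in Polg+/+ kidneys (adjusted p = 1.5e-07).

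Of 22 genes for monomer binding, severing and capping, 18 rose and 1 fell after B-IRI in PolgD257A, and 17 rose and 1 fell in Polg+/+ kidneys. Capg, a filament end capper, averaged 2234 ± 175 normalized counts in B-IRI PolgD257A and 1588 ± 254 in B-IRI Polg+/+, against 402 ± 75.0 in Sham PolgD257A and 378 ± 67.2 in Sham Polg+/+ kidneys. Its log2 changes were 2.49 ± 0.12 in PolgD257A and 2.07 ± 0.12 in Polg+/+ kidneys (adjusted p = 1.1e-14 and 5.5e-12, limma). Profilin gene Pfn1 rose by a log2 change of 0.82 ± 0.05 in PolgD257A kidneys (adjusted p = 4.2e-13). Gsn, for the severing protein gelsolin, fell by 0.39 ± 0.12 there (adjusted p = 0.0049). It was also the gene that fell in Polg+/+ kidneys (adjusted p = 0.042, limma). That call was lost with no filter and with only the libraries compared. It was also lost without any of Sham Polg+/+ replicates 3 and 5 or B-IRI Polg+/+ replicates 1, 2 and 5.

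Crosslinkers and side binders showed 16 of 22 genes higher and 2 lower after B-IRI in PolgD257A, and 13 higher and 1 lower in Polg+/+ kidneys. Tagln2, for transgelin-2, had log2 changes of 1.39 ± 0.08 and 0.98 ± 0.08 in PolgD257A and Polg+/+ kidneys (adjusted p = 5.2e-14 and 2.8e-10). Add3, for gamma-adducin of the membrane skeleton, fell by 0.52 ± 0.06 in PolgD257A kidneys (adjusted p = 1.7e-08). It was also the gene lower in Polg+/+ kidneys (adjusted p = 0.020, limma), a call lost without Sham Polg+/+ replicate 2 or B-IRI Polg+/+ replicate 6. The myosin light chain gene Myl12a rose by 1.12 ± 0.08 and 0.65 ± 0.08 (log2) in PolgD257A and Polg+/+ kidneys (adjusted p = 2.7e-12 and 2.4e-07).

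Of 28 focal adhesion genes 20 rose and 3 fell after B-IRI in PolgD257A, and 16 rose and 2 fell in Polg+/+ kidneys, while 14 were higher and 1 lower in PolgD257A than in Polg+/+ kidneys after B-IRI. Pdlim7, a PDZ and LIM adaptor of stress fibers, averaged 924 ± 146 normalized counts in B-IRI PolgD257A and 448 ± 120 in B-IRI Polg+/+, against 194 ± 16.02 in Sham PolgD257A and 213 ± 14.1 in Sham Polg+/+ kidneys. Its interaction was 1.20 ± 0.18 on the log2 scale (adjusted p = 0.00013). Zyx, for zyxin, had an interaction of 0.54 ± 0.10 (adjusted p = 0.0012). Tln2, the second talin gene, fell by 1.17 ± 0.09 in PolgD257A and 0.66 ± 0.09 in Polg+/+ kidneys (adjusted p = 9.0e-12 and 1.1e-06, limma). Tns1 also fell in both genotypes, but both calls were lost with quantile normalization (adjusted p = 0.52 in PolgD257A and 0.51 in Polg+/+ kidneys, limma).

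Of 14 tubulin genes 11 rose and 0 fell after B-IRI in PolgD257A, and 10 rose and 0 fell in Polg+/+ kidneys, with median log2 changes of 1.02 and 0.61, the highest median among lists of more than 3 genes in both. Tubb2a rose by 2.00 ± 0.10 and Tubb5 by 1.96 ± 0.11 in PolgD257A kidneys (adjusted p = 1.5e-14 and 7.7e-14, limma). Of 6 tropomyosin and tropomodulin genes 3 rose and 0 fell in each genotype, with Tpm2 at 1.52 ± 0.13 and Tpm3 at 1.07 ± 0.06 in PolgD257A kidneys (adjusted p = 1.1e-10 and 1.6e-13). Of 3 actin genes tested, Actb and the smooth muscle gene Acta2 rose in both genotypes. Of 4 liprin genes, relatives of Ppfibp1, 0 rose in either genotype and 3 fell in PolgD257A and 2 in Polg+/+ kidneys. In Polg+/+ kidneys the call of Ppfia4 (adjusted p = 0.038, limma) was lost with no filter, with the replicate block, and without any of Sham Polg+/+ replicates 3 and 4 or B-IRI Polg+/+ replicates 1, 3 and 4, which leaves Ppfibp2.

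Of the 4 regulators of SRF-dependent transcription tested (Srf, Mrtfa, Mrtfb and Fhl2), 4 rose after B-IRI in PolgD257A and 2 (Mrtfa and Srf) in Polg+/+ kidneys. The call of Srf in Polg+/+ kidneys (adjusted p = 0.042, limma) was lost with no filter, with quantile normalization, with only the libraries compared, and without any of Sham Polg+/+ replicates 1, 3, 5 and 6 or B-IRI Polg+/+ replicates 4, 5 and 6, which leaves 1 gene. Mrtfa averaged 483 ± 25.6 normalized counts in B-IRI PolgD257A and 366 ± 39.5 in B-IRI Polg+/+, against 307 ± 51.9 in Sham PolgD257A and 298 ± 5.45 in Sham Polg+/+ kidneys. It was higher in PolgD257A than in Polg+/+ kidneys after B-IRI by 0.40 ± 0.08 (log2, adjusted p = 0.00063, limma), and Srf rose by 0.37 ± 0.07 after B-IRI in PolgD257A kidneys (adjusted p = 9.5e-05).

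In PolgD257A kidneys after B-IRI the brush border genes ran against most of the other lists. Of 14 genes 3 rose and 9 fell after B-IRI in PolgD257A, and 3 rose and 3 fell in Polg+/+ kidneys. In Polg+/+ kidneys their median log2 change was -0.016, against -0.0082 over all genes, of which 21.4% rose and 19.8% fell. Between the genotypes after B-IRI, 1 of the 14 was higher and 9 lower in PolgD257A kidneys. Pdzk1, a scaffold of microvillar transporters, averaged 9315 ± 1117 normalized counts in B-IRI PolgD257A and 13930 ± 1501 in B-IRI Polg+/+, against 20074 ± 1476 in Sham PolgD257A and 17627 ± 2316 in Sham Polg+/+ kidneys. It fell by 1.11 ± 0.09 on the log2 scale in PolgD257A kidneys (adjusted p = 3.9e-11), and its interaction was -0.78 ± 0.13 (adjusted p = 0.00026, limma). Its call as lower after B-IRI in Polg+/+ kidneys was lost with quantile normalization (adjusted p = 0.15, limma). The microvillar cadherin gene Cdhr2 had an interaction of -0.66 ± 0.12 (adjusted p = 0.00096). Not all of the list fell. Vil1, for villin, rose by 0.37 ± 0.06 in PolgD257A and 0.41 ± 0.06 in Polg+/+ kidneys (adjusted p = 3.0e-06 and 2.1e-06, limma). Ezr, for ezrin, rose by 0.26 ± 0.05 in Polg+/+ kidneys (adjusted p = 7.5e-05, limma). Msn, for moesin, was the gene that was higher in PolgD257A than in Polg+/+ kidneys after B-IRI. Msn rose by 1.78 ± 0.09 after B-IRI in PolgD257A and 0.93 ± 0.09 in Polg+/+ kidneys (adjusted p = 2.8e-14 and 1.7e-08). Moesin is an ezrin relative known from endothelial and migrating cells.

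**Figure D5:**
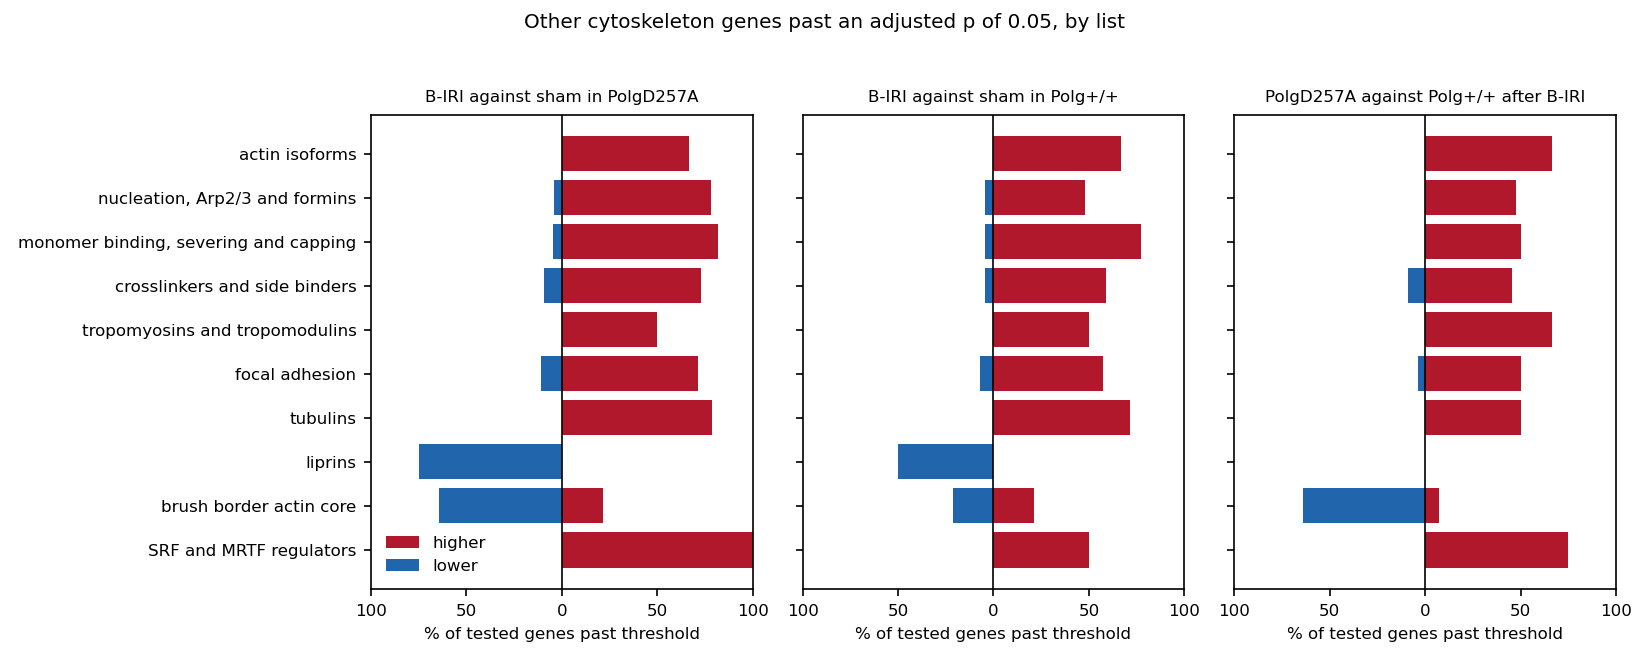
Percent of the tested genes of 10 of the 11 lists (horizontal axis) past an adjusted p of 0.05 in limma, higher in red to the right and lower in blue to the left, in 3 comparisons. Most lists lie to the right, with 18 of 22 genes for monomer binding, severing and capping higher after B-IRI in PolgD257A kidneys, while 9 of 14 brush border genes and 3 of 4 liprins were lower there.

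Markers of other cells moved in the same comparisons. Summed fibroblast markers (6 genes) ran from 9573 to 17425 normalized counts in B-IRI PolgD257A and from 4945 to 11433 in B-IRI Polg+/+, against 2853 to 4020 in Sham PolgD257A and 3282 to 4240 in Sham Polg+/+ kidneys. In limma 4 of the 6 were higher and 1 lower after B-IRI in PolgD257A kidneys. Summed smooth muscle and pericyte markers (10 genes, Acta2 among them) ran from 6672 to 8209 in B-IRI PolgD257A and from 4934 to 6676 in B-IRI Polg+/+, against 4029 to 4501 in Sham PolgD257A and 3869 to 4664 in Sham Polg+/+ kidneys. Of the 9 tested, 5 were higher and 0 lower in PolgD257A kidneys. The smooth muscle myosin gene Myh11 ran from 257 to 359 in B-IRI PolgD257A and from 277 to 384 in B-IRI Polg+/+, against 276 to 416 in Sham PolgD257A and 271 to 383 in Sham Polg+/+ kidneys. Summed neutrophil markers ran from 81.5 to 473 in B-IRI PolgD257A and from 38.9 to 118 in B-IRI Polg+/+, against 14.8 to 51.8 in Sham PolgD257A and 20.03 to 36.7 in Sham Polg+/+ kidneys.

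Ranges of the 5 lists not yet given overlapped between B-IRI and sham kidneys in both genotypes. Summed endothelial markers were 4348 to 5694 in B-IRI PolgD257A and 3160 to 4996 in B-IRI Polg+/+, against 4381 to 5636 in Sham PolgD257A and 3848 to 5482 in Sham Polg+/+ kidneys. Podocyte markers were 5658 to 6767 and 5172 to 6099 in the B-IRI PolgD257A and B-IRI Polg+/+ kidneys, and 4642 to 6931 and 4652 to 5907 in the Sham PolgD257A and Sham Polg+/+ kidneys. Macrophage markers were 2575 to 3798 and 2195 to 3681 in the B-IRI PolgD257A and B-IRI Polg+/+ kidneys, and 2647 to 3241 and 2733 to 3447 in the Sham PolgD257A and Sham Polg+/+ kidneys. Of the 7 macrophage markers 3 were higher and 1 lower after B-IRI in each genotype. Cd68 ran from 331 to 480 in B-IRI PolgD257A and from 170 to 342 in B-IRI Polg+/+, against 51.7 to 95.5 in Sham PolgD257A and 52.6 to 68.1 in Sham Polg+/+ kidneys. Csf1r went the opposite way, with 473 to 723 in B-IRI PolgD257A and 785 to 1004 in B-IRI Polg+/+, against 1206 to 1413 in Sham PolgD257A and 1342 to 1598 in Sham Polg+/+ kidneys. Platelet markers were 187 to 243 and 225 to 275 in the B-IRI PolgD257A and B-IRI Polg+/+ kidneys, and 243 to 350 and 257 to 302 in the Sham PolgD257A and Sham Polg+/+ kidneys. Markers of the thick ascending limb, distal tubule and collecting duct were 89226 to 145242 and 150131 to 170668 in the B-IRI PolgD257A and B-IRI Polg+/+ kidneys, and 140901 to 168713 and 143173 to 168539 in the Sham PolgD257A and Sham Polg+/+ kidneys. The part of these cells in the levels of the 10 genes was not tested.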

How the data were processed

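RNA was extracted from mouse kidneys with an RNeasy kit and made into libraries with NEBNext Ultra II reagents, per the labels' protocols. FastQC, STAR, SAMtools, featureCounts, DESeq2 and the build GRCm38.p6 are named in the submitters' processing notes, without versions for the tools. The main deposited table holds a signal, the gene count over a size factor that the authors set for each library. From the steps between low values the factors came out at 0.740 to 1.31, and 100% of values then returned to whole reads (tolerance 0.01), which gave the depths and served the count models. A second deposited table gives, for 1401 genes, the authors' mean signal, shrunken log2 fold change with its standard error, and s-value (a p-value-like chance of a wrong sign). Column names reading Ctrl, Mut and SurgBIR were taken as Polg+/+, PolgD257A and B-IRI, which no source used here states, and every comparison rests on this.

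The test was limma-trend (limma 3.58.1, R 4.3.3), two-sided, on log2(normalized count + 1) with all 24 libraries, keeping genes that reached 10 normalized counts in 6 or more of them. P-values were adjusted by Benjamini-Hochberg over 17430 genes per comparison, with a threshold of 0.05. The pseudocount understates changes of low genes. The pseudocount was also set to 0.5 and to 5, the filter removed or raised to 50, TMM scaling or quantile normalization applied, and the fit limited to the libraries compared. Further alternatives were a replicate block, the recovered reads in DESeq2 1.42.0 and edgeR 4.0.16, and each library left out in turn. Models were tested on simulated counts. Python 3.11.15, NumPy 2.4.6, pandas 2.3.3, SciPy 1.17.1 and Matplotlib 3.10.9 did the rest.

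The 10 genes and all lists were chosen with earlier results of these data known. From each list up to 3 genes with the smallest adjusted p in the more frequent direction and up to 2 in the other could be named. Myh10 and other relatives were named as members of a family, and some items are not reported here. Gene positions and exon lengths come from GENCODE M21 (GRCm38), which differs from the annotation behind the counts, and promoters from RefSeq (GRCm38.p6). P-values measure the spread between these libraries, which the labels call biological replicates.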

Additional observations from a re-analysis of the deposited data

Results flagged for a closer look

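In 3 of 40 tests of 10 genes in 4 groups of 6 a single library stood apart from the rest of its group, a rate near the 1 in 20 that chance gives. Flnc reached 1013 normalized counts in B-IRI PolgD257A replicate 4, Flna reached 2206 in Sham Polg+/+ replicate 3, and Vcl was at 506 in B-IRI Polg+/+ replicate 1.

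The response to B-IRI differed between PolgD257A and Polg+/+ kidneys by the interaction term in limma. As a description, since the genes were chosen on these libraries, the log2 values for the 10 genes were Flnc (1.49), Flna (0.81), Actn1 (0.86), Actg1 (0.35), Myh9 (0.56), Tpm1 (0.37), Tpm4 (0.77), Vcl (0.49), Tubb6 (0.87) and Ppfibp1 (0.64). The value of Flnc did not pass in edgeR or DESeq2. Among the named genes of the lists the interaction was positive for the filament assembly and turnover genes Arpc1b (0.68), Cttn (0.28), Fhod3 (0.33), Coro1c (0.40), Pfn1 (0.33) and Wdr1 (0.37), the actin and tropomyosin genes Acta2 (0.72), Actb (0.41), Tpm2 (0.66) and Tpm3 (0.38), the crosslinkers Tagln2 (0.41), Lasp1 (0.24) and Synpo (0.39), Myl12a (0.47), Rnd1 (1.33) and Rock2 (0.47), the focal adhesion genes Itga5 (1.12), Pdlim7 (1.20) and Zyx (0.54), the tubulins Tuba1c (0.52), Tubb2a (0.73) and Tubb5 (0.70), the SRF regulators Fhl2 (0.69), Mrtfa (0.38) and Mrtfb (0.37), and for Msn (0.84). It was negative for Add3 (-0.35), Cdhr2 (-0.66), Eps8 (-0.32), Fmnl1 (-0.53), Myh14 (-0.55), Pdzk1 (-0.78), Tln2 (-0.52) and Tubd1 (-0.49). The calls of Acta2, Fhod3, Lasp1, Mrtfa, Mrtfb, Myh14 and Synpo were lost under at least 1 alternative.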

How the results depend on the processing

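For the 10 genes, 1339 of 1350 values of the 40 changes that involve B-IRI libraries kept their direction and their side of the threshold under the alternatives run, 0 were reversed, and the 11 that lost their call were all of the Flnc interaction. That interaction had an adjusted p of 0.060 with no filter, 0.26 in edgeR and 0.11 in DESeq2, and log2 values from 1.11 to 1.69 when a library was left out. In sham kidneys the log2 difference of Actg1 was -0.034 with quantile normalization and -0.0017 in edgeR and in DESeq2, and -0.032 to 0.025 when a library was left out. The difference is within its standard error. All genes called between sham genotypes numbered 37 with only the libraries compared and 43 in DESeq2, against 22, and 15 to 30 when a library was left out. For the named list genes 4842 of 4964 values were unaltered in direction and call, 122 lost the call and 0 were reversed. The cause was not tested.

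Leaving out a library gave 10119 to 10588 genes called for B-IRI in PolgD257A, 6335 to 7319 in Polg+/+, 4125 to 5220 for the genotypes after B-IRI, and 2102 to 3034 for the interaction. List genes called were then 126 to 132, 94 to 106, 75 to 91, 0 to 0 in sham kidneys, and 44 to 63. Genes correlated with Havcr1 numbered 0 to 2 in B-IRI PolgD257A and 0 to 5 in B-IRI Polg+/+ kidneys, where 5 libraries allow fewer small p-values. Deviations of same-numbered samples from their group means had correlations from -0.33 to 0.17, over 0.1 in 0 to 2 of 6 pairs per comparison. The labels state no pairing by number and the main fit used none, but these correlations cannot exclude one. With the number as a replicate block 10328, 6835, 4786, 20 and 2326 genes were called for B-IRI in PolgD257A, B-IRI in Polg+/+, the genotypes after B-IRI, the genotypes in sham and the interaction. The interaction was not run on only the libraries compared, since it uses all. Depth limits Flnc most, with 11.8 to 25.3 normalized counts in sham kidneys.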
